A study of Mus musculus with 3 samples.

Results

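Cycling tumor macrophages were taken as cells that carried transcripts of the complement component C1q together with transcripts of the cell division machinery. A cell had to hold at least 10 counts summed over C1qa, C1qb and C1qc, at least 1 count of Adgre1 (the macrophage surface protein F4/80), Ms4a7 or Mrc1 (the mannose receptor CD206), and no count of the T cell gene Cd3e or of the neutrophil chemokine receptor gene Cxcr2. Among these C1q-positive cells, a cell was called cycling when at least 2 of the 4 genes Mki67, Top2a, Birc5 and Cdk1 were detected, and it was otherwise counted among the other C1q-positive cells. The rule selected 198 cycling cells out of 765 C1q-positive cells and 12472 cells that passed quality limits. The remaining 567 C1q-positive cells served as the comparison. Both classes were selected on these measured counts, so every difference between them is given as a description and none was tested.

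The study asked how blockade of the stress kinase p38 alters the leukocytes of the tumor microenvironment (TME) in metastatic breast cancer. Female BALB/c mice aged 6 to 8 weeks received 200000 cells of 4T1-luc, a luciferase-tagged mouse mammary carcinoma line, in the fourth mammary fat pad. The vehicle group bore 4T1-luc tumors and received DPBS, and the p38i group bore the same tumors and received the p38 inhibitor ralimetinib (LY2228820) at 30 mg/kg by daily gavage for 10 days from day 4. The p38KO group bore tumors of a 4T1-luc clone, p38a-KO-H9, in which Mapk14 (encoding p38α) was inactivated by CRISPR-Cas9, so that the inactivation was confined to the tumor cells and the sorted leukocytes came from hosts with intact Mapk14. Tumors were harvested on day 14, 3 tumors per group were pooled, and live CD45+ cells were sorted and sequenced as 1 library per group. The labels give no treatment for the p38KO mice, so that p38KO and vehicle may also differ in the gavage. The knockout rests on 1 clone, and with 1 library per group the condition and the library cannot be told apart. No replicate check was possible, so no p-value is given for any comparison.

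Macrophages of tumors arise from blood monocytes that enter the tissue and from resident cells that renew themselves locally, and both can divide. Division starts with licensing of replication origins by the MCM helicase and the synthesis of DNA, histones and nucleotides, and it ends with assembly of the spindle, separation of the chromosomes and destruction of the mitotic cyclins by the anaphase-promoting complex. The C1q genes are expressed by mature tissue macrophages, in which they mark dead cells and immune complexes for uptake.

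Where 3 values stand together they are in the order vehicle, p38i and p38KO. The cycling class held 37, 33 and 128 cells with 1091632, 803234 and 2956843 UMIs in all, a UMI being the molecular tag that marks each captured transcript once. The other C1q-positive class held 93, 119 and 355 cells with 1712975, 2050145 and 5033144 UMIs. Cycling cells were deep: their median was 31220, 22868 and 19570.5 UMIs and 5399, 4343 and 4304.5 detected genes, against 17241, 17205 and 12275 UMIs and 3816, 3718 and 3167 genes in the other cells. The median share of mitochondrial counts was 3.35%, 3.24% and 4.00% in cycling cells and 3.06%, 3.17% and 3.89% in the others. A deeper cell has more chances to show 2 of 4 genes, so depth entered the rule and each share below was also read after cells were thinned to the same number of UMIs. The libraries shared 6 (vehicle and p38i), 5 (vehicle and p38KO) and 9 (p38i and p38KO) cell barcodes, none of them C1q-positive.

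The rule fixed the presence of division and C1q transcripts in the same cell, so only macrophage genes outside it bear on the label. Of the 37, 33 and 128 cycling cells, Mki67 was detected in 29, 28 and 100, Top2a in 30, 25 and 89, Birc5 in 29, 24 and 99, and Cdk1 in 27, 21 and 89. Of the rule's macrophage genes, Adgre1 was found in 28, 24 and 116 cells, Ms4a7 in 17, 15 and 96 and Mrc1 in 33, 33 and 121. Outside the rule, Csf1r, the receptor for the macrophage growth factor CSF1, was detected in 36, 33 and 125 cells and Cd68, a lysosomal protein of macrophages, in 36, 33 and 124. Apoe (a lipid carrier) was detected in every cycling cell, Fcgr1 (the IgG receptor CD64) in 91.9%, 100% and 96.9%, Trem2 (a lipid receptor) in 81.1%, 93.9% and 93.8% and the lipopolysaccharide co-receptor gene Cd14 in 83.8%, 93.9% and 85.9%. Mertk, the receptor for uptake of dead cells, was detected in 37.8%, 36.4% and 29.7%, the lowest of these 7 genes. The 4 division genes of the rule lie apart in the mouse genome (GRCm38), with Mki67 at chr7:135689784-135716361 on the minus strand, Top2a at chr11:98992943-99024189 (minus), Birc5 at chr11:117849251-117855743 (plus) and Cdk1 at chr10:69335146-69352938 (minus). C1qb (chr4:136880129-136886187), C1qc (chr4:136889804-136893065) and C1qa (chr4:136895917-136898803) stand next to each other on the minus strand.

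The cycling cells differed in how many of the 4 division genes they showed, at least 2 being fixed by the rule. Mki67 (a coat protein of mitotic chromosomes) and Top2a (the topoisomerase that disentangles replicated DNA) shared 24, 22 and 68 cycling cells. Birc5 (survivin, a part of the chromosomal passenger complex) and Cdk1 (the kinase that starts mitosis) shared 21, 15 and 69. All 4 genes were detected in 15, 10 and 46 cells, 3 in 11, 12 and 29, and exactly 2 in 11, 11 and 53. Just outside the threshold, 29, 28 and 115 cells showed exactly 1 of the genes, and 64, 91 and 240 showed none. The cells just inside and just outside also differed in transcripts that the rule did not use. Summed over 34 genes of origin licensing and DNA synthesis, cells with exactly 2 genes held 1500.3, 1208 and 1373 CPM (counts of these genes per 1000000 UMIs of that class), against 621, 410.1 and 619.8 in cells with exactly 1. Over 49 mitotic genes the same classes held 674, 1125 and 1049 CPM against 462, 279 and 370.2. In the vehicle cells with exactly 1 gene, 81 UMIs of these mitotic genes came from 1 cell. Cells with all 4 genes reached 2977, 2691 and 2787 CPM for replication and 3236, 4014 and 4506 CPM for mitosis.

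About 1 in 4 C1q-positive cells was cycling in each library. The cycling share was 28.5% of 130 cells in vehicle (exact Clopper-Pearson 95% interval 20.9 to 37.0%), 21.7% of 152 cells in p38i (15.4 to 29.1%) and 26.5% of 483 cells in p38KO (22.6 to 30.7%). These intervals overlapped for every pair of libraries and, like all intervals given here, cover counting error only. Thinned to 10000 UMIs a cell, the share was 22.3% of 103 cells, 17.2% of 122 and 25.8% of 326. At 5000 UMIs it was 15.1% of 119 cells, 11.4% of 140 and 16.4% of 432, and at 1500 UMIs it was 6.15%, 3.95% and 6.83% of all C1q-positive cells. The p38i value was the lowest at each depth, and the intervals overlapped at each depth as well. With 1 library per group the difference in cycling share was not tested.

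**Figure D1:**
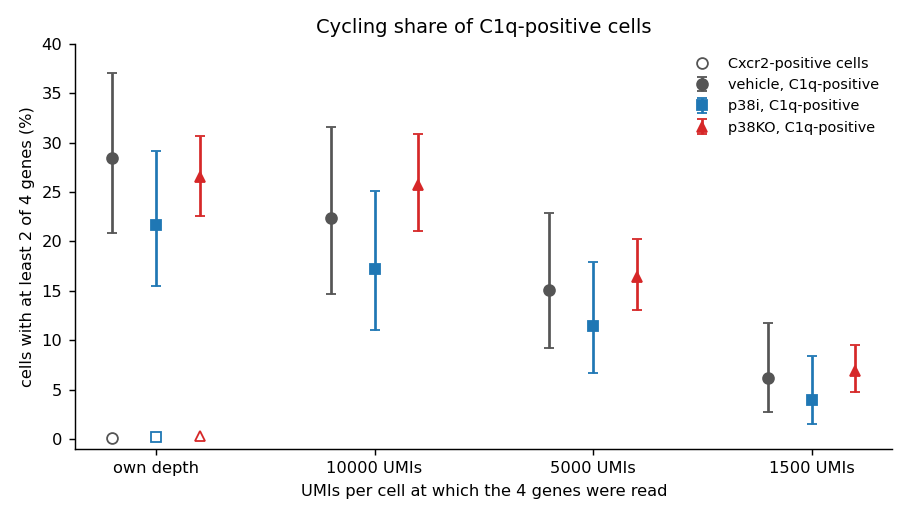
The y axis gives the percentage of C1q-positive cells with at least 2 of the 4 division genes. Filled symbols with exact 95% intervals show it at each cell's own depth and after thinning to the depth on the x axis. Open symbols give the same percentage at own depth among Cxcr2-positive cells below the C1q count limit of the rule. The 3 libraries overlap at every depth, from 28.5%, 21.7% and 26.5% at own depth down to 6.15%, 3.95% and 6.83% at 1500 UMIs.

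Free RNA in the droplets can give a cell a count of a gene that it does not express. The same 4 genes were therefore read in granulocytes, which do not divide in tissue, taken as Cxcr2-positive cells with fewer than 10 C1q counts. This left out 17 of 1628, 15 of 1994 and 53 of 1534 Cxcr2-positive cells, those with most C1q transcripts. At least 2 of the genes were seen in 1 of 1611, 3 of 1979 and 5 of 1481 such cells (0.0621%, 0.152% and 0.338%), at a median depth of 2599, 2361 and 2265 UMIs. After thinning to 1500 UMIs the granulocyte share was 0 of 1611, 0 of 1979 and 2 of 1481 cells, against 8 of 130, 6 of 152 and 33 of 483 C1q-positive cells. Thinned to 10000 UMIs, the few granulocytes that deep gave 0 of 68, 3 of 90 (3.33%) and 2 of 36 cells (5.56%). Their 95% intervals were 0 to 5.28%, 0.69 to 9.43% and 0.68 to 18.7%. These intervals overlapped, and a difference in background between the libraries was not tested. At both depths the granulocyte share was the lower one in each library. T cells, read in the same way, gave 2.81%, 2.99% and 2.04% at 1500 UMIs, 8.31%, 11.3% and 6.45% at 5000, and were 26 of 72, 20 of 55 and 10 of 40 cells at 10000 (36.1%, 36.4% and 25%). The order of the T cell and macrophage shares thus turned with depth in vehicle and p38i, and no order between these cell types is read from them.

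The number of cycling macrophages differed between libraries far more than their share did. C1q-positive cells made up 3.40% of kept cells in vehicle (95% interval 2.85 to 4.03%), 3.17% in p38i (2.69 to 3.71%) and 12.5% in p38KO (11.5 to 13.6%). Cycling macrophages made up 0.969% (0.683 to 1.33%), 0.689% (0.474 to 0.966%) and 3.32% (2.77 to 3.93%). The p38KO interval lay above both others. A count of at least 10 C1q UMIs was also found in 1.04%, 0.752% and 3.46% of Cxcr2-positive cells, so C1q transcripts in cells of another type were likewise most frequent in the p38KO library. The part of this in the macrophage shares was not tested.

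Across all genes, 8280, 8294 and 10306 genes had at least 20 counts over both classes. A gene was counted as higher or lower when the log2 ratio of cycling to other C1q-positive cells was at least 0.5 either way and its exact conditional binomial 95% interval left out 0. In the vehicle library 12.5% of genes were higher and 8.82% lower in cycling cells, in p38i 11.1% and 5.93%, and in p38KO 13.4% and 8.31%. The median log2 ratio of all these genes was 0.05, 0.07 and 0.03. With median-ratio scaling in place of total counts, 54.2% rather than 65.2% of the p38i calls were in the higher direction. Of 7949 genes with enough counts in each library, 5.09% were higher in all 3 libraries and 1.7% were lower in all 3. Since division genes chose the cycling class, the counts of the division lists below describe what came with the rule.

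Genes of origin licensing and DNA synthesis were higher in cycling cells throughout. Of the 28 replication genes with enough counts in each library, 27 were higher in all 3. The MCM genes encode the replicative helicase, and Mcm6 stood at 96.2, 78.4 and 79.1 CPM in cycling cells against 14.0, 5.85 and 21.9 CPM in the others (log2 ratios 2.78, 3.74 and 1.86). Mcm5 was 94.4, 74.7 and 89.3 CPM against 15.2, 6.34 and 18.3 (2.64, 3.56 and 2.29). No library's cycling value for Mcm5 or Mcm6 came near the highest value of the other cells. Rrm2, a subunit of the ribonucleotide reductase that makes deoxynucleotides, was 76.9, 61.0 and 75.8 CPM against 5.25, 0.976 and 2.98. Pcna, the sliding clamp of DNA polymerase, was 254, 181 and 217 CPM against 97.5, 69.3 and 90.8, with smaller ratios of 1.38, 1.38 and 1.26. The median log2 ratio of the licensing list was 2.29, 2.35 and 1.83 and that of the DNA synthesis list 2.46, 2.51 and 2.20.

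Mitotic genes showed the larger ratios. Of 36 mitotic genes with enough counts in each library, 35 were higher in all 3, and the median log2 ratio of mitotic kinases and spindle proteins was 4.02, 4.52 and 4.35. Prc1, which bundles the microtubules of the central spindle, was 39.4, 39.8 and 76.4 CPM in cycling cells and 0, 0 and 1.99 CPM in the others, so that it was at least 4.49 log2 units higher in vehicle and at least 4.77 in p38i, set against a floor of 3 counts for the class, and 5.27 higher in p38KO. Cdc20, the activator of the anaphase-promoting complex, was 55.9, 74.7 and 70.0 CPM against 9.34, 1.46 and 3.18 (2.58, 5.67 and 4.46). Ube2c, the ubiquitin-conjugating enzyme of the same complex, was 81.5, 105 and 199 CPM against 12.3, 6.34 and 9.93. The centromeric histone gene Cenpa was 134, 235 and 172 CPM against 39.1, 20.5 and 25.4. In the vehicle library the other cells therefore still held some Cdc20, Ube2c and Cenpa, and the ratios there were the smallest of the 3 libraries. Of these 93 cells, 1 cell of 12166 UMIs held 81 UMIs of mitotic genes, and its part in these ratios was not tested.

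Among cyclins and their kinases the response was selective. Of 17 genes with enough counts in each library, 9 were higher in all 3, among them the cyclin genes Ccne1, Ccna2, Ccnb1 and Ccnb2. Ccna2 was 62.3, 80.9 and 69.0 CPM in cycling cells against 1.17, 0.488 and 2.98 in the others, and Ccnb1 was 41.2, 62.2 and 59.2 CPM against 0.584, 0 and 1.59. By contrast Ccnd1, the cyclin that links growth factor signals to the cycle, was 215, 242 and 175 CPM against 144, 175 and 142, and only the vehicle value passed the limits (log2 ratio 0.58, 0.46 and 0.30). Ccnd2 differed by -0.08, 0.11 and 0.06 and passed nowhere. Cdkn2c, an inhibitor of the cyclin D kinases, was higher in all 3 libraries (2.71, 1.74 and 2.23), whereas the inhibitor gene Cdkn1a (p21) gave -0.62, -0.14 and 0.03. Among the regulators of cell-cycle transcription, Rbl1 (p107) and Tfdp1 (the partner of E2F) were the 2 of 10 that were higher in all 3. Foxm1 and Mybl2, which drive mitotic transcription, had too few counts for a call in vehicle and p38i and were 16.6 and 18.3 CPM in p38KO cycling cells against 0.795 CPM each.

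Genes of replication-dependent histones, which package new DNA, were higher for 7 of 10 members in all 3 libraries. Hist1h1b was 37.6, 89.6 and 84.5 CPM in cycling cells against 6.42, 0.488 and 2.98 in the others. The linker histone gene Hist1h1c went another way, with 42.1, 63.5 and 74.4 CPM against 95.2, 58.0 and 47.3, lower in vehicle and higher in p38KO. Most histone transcripts lack the poly(A) tail by which the assay captures RNA, so these counts cover a part of the histone message. Chromatin proteins that are abundant in dividing cells were higher for 15 of 15 genes in all 3 libraries. Hmgb2 (a DNA-bending protein) reached 909, 1110.5 and 1083 CPM against 171, 156 and 167, and the variant histone gene H2afz 1332, 1465 and 1314 CPM against 475, 548 and 441.

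**Figure D2:**
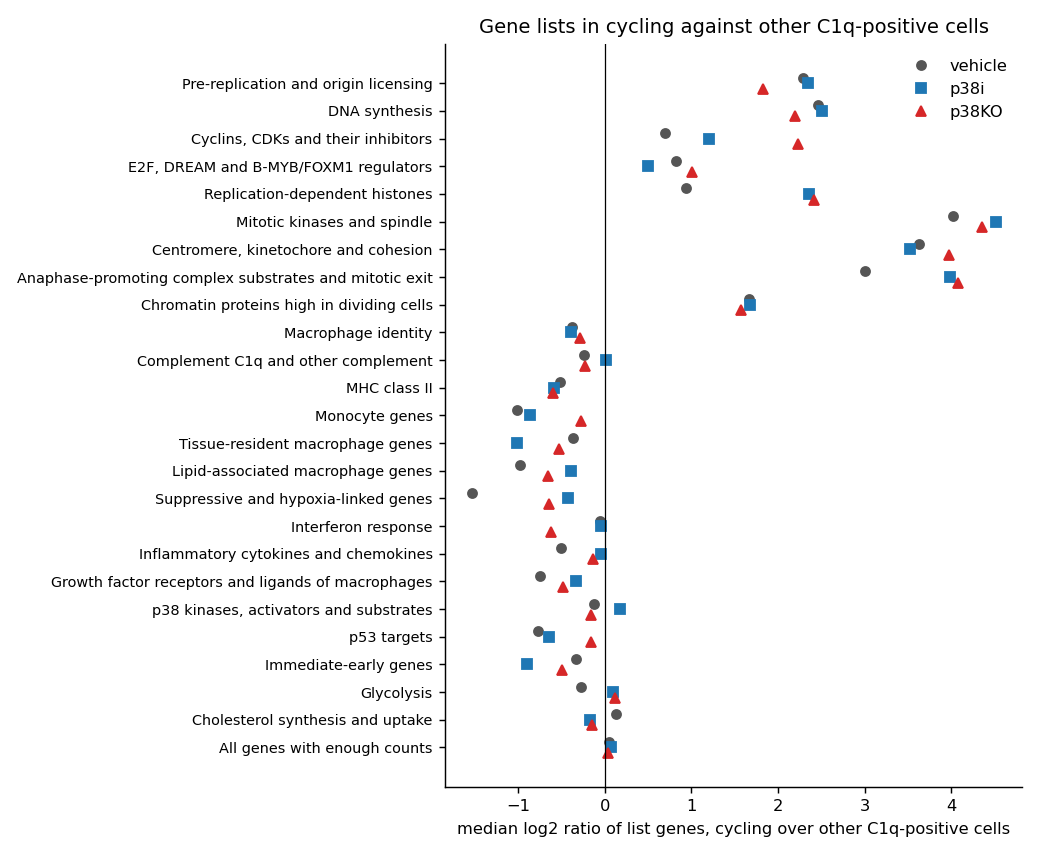
Each symbol is the median log2 ratio of cycling to other C1q-positive cells over the genes of one list with at least 20 counts (x axis), in one library, and the last line is the median over all such genes. The 9 division lists lie to the right of the line at 0 in each library, while the medians of MHC class II, monocyte, tissue-resident, lipid-associated and suppressive genes lie to the left.

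Outside the lists, the gene with the largest counts among the 10 highest by ratio was Pclaf, a PCNA-binding protein of the replication fork, at 362, 322 and 287 CPM in cycling cells against 12.8, 17.1 and 13.1 in the others (log2 ratios 4.82, 4.24 and 4.45). The histone chaperone gene Asf1b was 59.5, 57.3 and 60.2 CPM against 2.34, 1.95 and 6.36. The kinetochore scaffold gene Knl1, the spindle genes Ckap2l, Kif15 and Dlgap5, the cytokinesis genes Cit and Diaph3 and the condensin gene Ncapg2 were also in the ranking. The genes named here belong to replication or mitosis.

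The balance of replication and mitotic transcripts varied widely between cycling cells. Per 10000 UMIs of a cell, the median cycling cell held 17.9, 7.86 and 12.2 UMIs of the 34 replication genes, with quartiles of 8.97 to 37.3, 6.68 to 17.3 and 4.63 to 31.4. It held 22.4, 18.9 and 18.4 UMIs of the 49 mitotic genes, with quartiles of 7.39 to 34.7, 9.22 to 35.7 and 6.62 to 41.9. The other C1q-positive cells had medians of 2.98, 2.74 and 3.52 for replication and 2.20, 1.99 and 2.37 for mitosis. Mitotic exceeded replication transcripts in 18 of 37 cycling cells of vehicle (48.6%, 95% interval 31.9 to 65.6%), 22 of 33 of p38i (66.7%, 48.2 to 82.0%) and 66 of 128 of p38KO (51.6%, 42.6 to 60.5%). The p38i library had the lowest replication median and the largest share of cells with more mitotic transcripts, with intervals that overlapped those of the other libraries. These sums count different numbers of genes of different levels, so the balance compares libraries and gives no phase of the cycle.

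**Figure D3:**
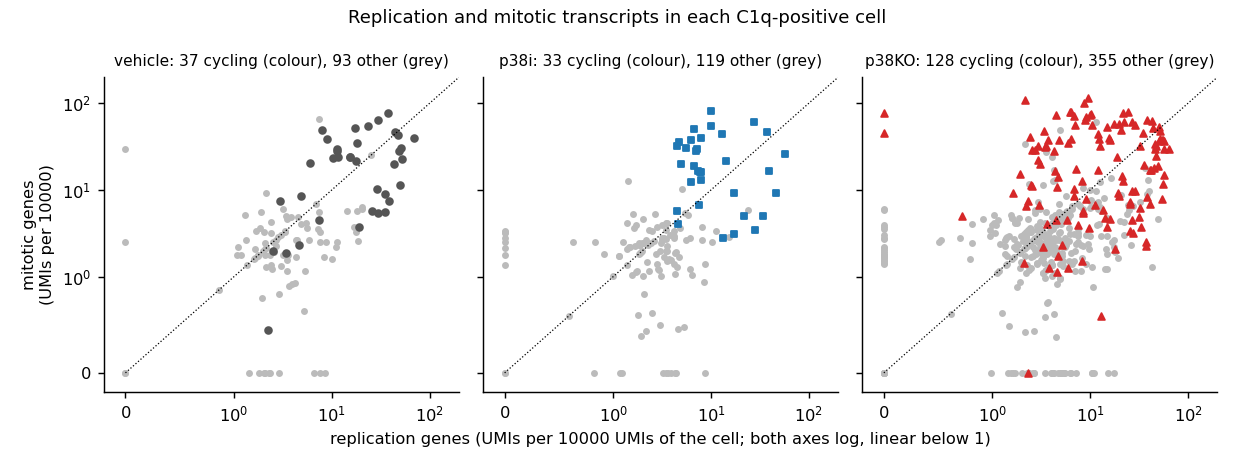
Each point is 1 C1q-positive cell, with UMIs of the replication genes (x axis) and of the mitotic genes (y axis) per 10000 UMIs of the cell on axes that are logarithmic above 1 and linear below, and a dotted line of equal values. Cycling cells (colour) spread along both axes above most of the other cells (grey), and 18 of 37, 22 of 33 and 66 of 128 of them lie above the line.

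Replication and mitotic genes were among the lists with the largest medians, and their promoters were read for the motifs known from cell-cycle transcription. The E2F motif was searched as TTTCCCGC, TTTGGCGC, TTTCGCGC or TTTGCCGC, the cell-cycle homology region (CHR) as TTTGAA and the CCAAT box as CCAAT, on both strands of the 250 bases before each start site in RefSeq annotation of GRCm38.p6. Of 33 promoters of 28 replication genes, 24.2% held E2F letters, 9.09% CHR letters and 60.6% CCAAT. Of 45 promoters of 40 mitotic genes, 4.44% held E2F letters, 31.1% CHR letters and 75.6% CCAAT. Over all 32851 promoters in the table the shares were 1.86%, 16.0% and 33.8%. CHR and CCAAT stood in the same promoter for 26.7% of mitotic, 6.06% of replication and 5.55% of all promoters. E2F letters were thus most frequent among replication promoters and CHR letters among mitotic ones, as a description of these letters in these windows. The last 140 bases before the start are printed for 2 mitotic genes described above whose promoters hold both CHR and CCAAT letters, as most mitotic promoters did not, and for the 2 MCM genes above, as the sense strand with motif letters of either strand in capitals. ATTGG and TTCAAA are the CCAAT and CHR letters read on the opposite strand.
Cdc20 promoter, chr4:118437344-118437483, minus strand: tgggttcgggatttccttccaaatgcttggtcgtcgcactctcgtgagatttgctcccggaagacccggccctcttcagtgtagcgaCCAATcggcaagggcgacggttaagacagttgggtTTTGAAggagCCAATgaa
Ube2c promoter, chr2:164769789-164769928, plus strand: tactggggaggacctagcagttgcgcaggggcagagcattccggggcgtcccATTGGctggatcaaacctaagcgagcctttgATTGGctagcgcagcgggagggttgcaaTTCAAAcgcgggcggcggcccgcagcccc
Mcm6 promoter, chr1:128359706-128359845, minus strand: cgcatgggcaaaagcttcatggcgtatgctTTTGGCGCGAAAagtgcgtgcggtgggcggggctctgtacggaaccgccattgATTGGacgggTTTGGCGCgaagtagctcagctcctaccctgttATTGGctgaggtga
Mcm5 promoter, chr8:75109369-75109508, plus strand: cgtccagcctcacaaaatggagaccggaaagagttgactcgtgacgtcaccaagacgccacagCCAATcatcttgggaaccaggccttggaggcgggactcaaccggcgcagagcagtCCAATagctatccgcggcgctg

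Cdc20 and Ube2c each carried 1 CHR, beginning 18 and 29 bases before the start, and 2 CCAAT boxes upstream or next to it. Mcm6 carried 3 E2F matches, of which the pair at 110 and 106 bases before the start overlap on opposite strands and the last begins at 47, together with 2 CCAAT boxes. Mcm5 carried 2 CCAAT boxes at 77 and 22 bases and none of the E2F or CHR letters in the bases printed.

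Macrophage identity genes were present in cycling cells, with lower levels for a part of them. Of 18 identity genes, 7, 6 and 4 were lower and none was higher in the 3 libraries, 13 had a ratio below 0 in all 3 and 2 a ratio above 0 in all 3, and the list medians were -0.38, -0.39 and -0.29. The log2 ratio of their summed CPM was -0.54, -0.79 and -0.62. C1qa, which the rule used, was 5529, 5763 and 6522 CPM in cycling cells and 5614, 5700.1 and 7434 CPM in the others, with log2 ratios of -0.02, 0.02 and -0.19. Csf1r was 459, 386 and 698 CPM against 594, 540.4 and 894, below the limit for a call in each library. Fcgr1 was 372, 388 and 410 CPM against 368, 370 and 473, and Cx3cr1 (the fractalkine receptor) 645, 560 and 965 CPM against 522, 544 and 950. Ms4a7, which the rule also used, was 195, 142 and 354 CPM against 263, 287 and 687, and it was lower in p38i and p38KO (-0.43, -1.02 and -0.96). The 3 identity genes lower in all 3 libraries were Apoe and the cathepsin genes Ctsb and Ctsd, which encode lysosomal proteases. Apoe was 8664, 7666 and 14389 CPM in cycling cells against 14390 CPM, 17708 and 25839 in the others (-0.73, -1.21 and -0.84), and Ctsd was 398, 443 and 590 CPM against 1044, 981 and 1072.

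Several genes of antigen presentation were lower in cycling cells. Of 9 MHC class II genes with enough counts in each library, H2-Aa, H2-Ab1, H2-Eb1 and Cd74 were lower in all 3 and none was higher, and the list medians were -0.52, -0.59 and -0.60. Cd74, the invariant chain that guides class II molecules, was 9918, 8685 and 13810 CPM in cycling cells against 15661, 14654 and 21195 in the others. H2-Aa was 3719, 3155 and 5321 CPM against 6311, 5968 and 8223. In each library the cycling value was the lower one, although the p38KO cycling cells held more H2-Aa than the p38i cycling cells and less than the other cells of every library. In cells of at least 10000 UMIs, read in both classes, the list median was -0.55, -0.61 and -0.55.

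Several genes of the lipid-associated and the suppressive lists were lower in cycling cells. Mmp12, the macrophage elastase, was 130, 183 and 148 CPM in cycling cells against 1371, 703 and 1004 in the others (log2 ratios -3.40, -1.94 and -2.76). Fabp5, a fatty acid carrier, was 258, 237 and 157 CPM against 801, 780 and 457. Together with the lipid droplet gene Plin2 and the cathepsin gene Ctsl, these were the 4 of 11 lipid-associated genes lower in all 3 libraries. None was higher in all 3, and 1 of 12 was higher in p38i. Of 11 suppressive and hypoxia-linked genes 4 were lower in all 3 and none was higher, among them Nos2 (nitric oxide synthase), Hmox1 (haem oxygenase) and Ndrg1. Hmox1 was 81.5, 141 and 77.4 CPM against 378, 285 and 337. Nos2 was at 4.58, 7.47 and 3.38 CPM against 49.6, 31.7 and 49.9. Nos2 rested on 5, 6 and 10 counts in cycling cells, and 41.6% of the p38i cycling counts of Hmox1 came from 1 cell.

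Genes that mark recent arrival from blood and genes that mark residence both had lower members. Of 8 monocyte genes with enough counts in each library, Plac8 was the 1 lower in all 3. Ccr2, the receptor by which monocytes leave the blood stream for tissue, was 153, 182 and 226 CPM in cycling cells against 378, 448 and 273 in the others, lower in vehicle and p38i (-1.31 and -1.30) and short of the limit in p38KO (-0.27). Among 9 tissue-resident genes, Folr2 (a folate receptor) and Ccl8 (a chemokine) were lower in all 3. Folr2 was 33.9, 11.2 and 41.3 CPM against 66.6, 25.9 and 73.9. Ccl8 was 644, 434 and 2079 CPM against 1244, 638 and 3876, and 78.8% of its p38i cycling counts came from 1 cell. Lyve1, another resident marker, was at 0 in the cycling cells of each library.

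**Figure D4:**
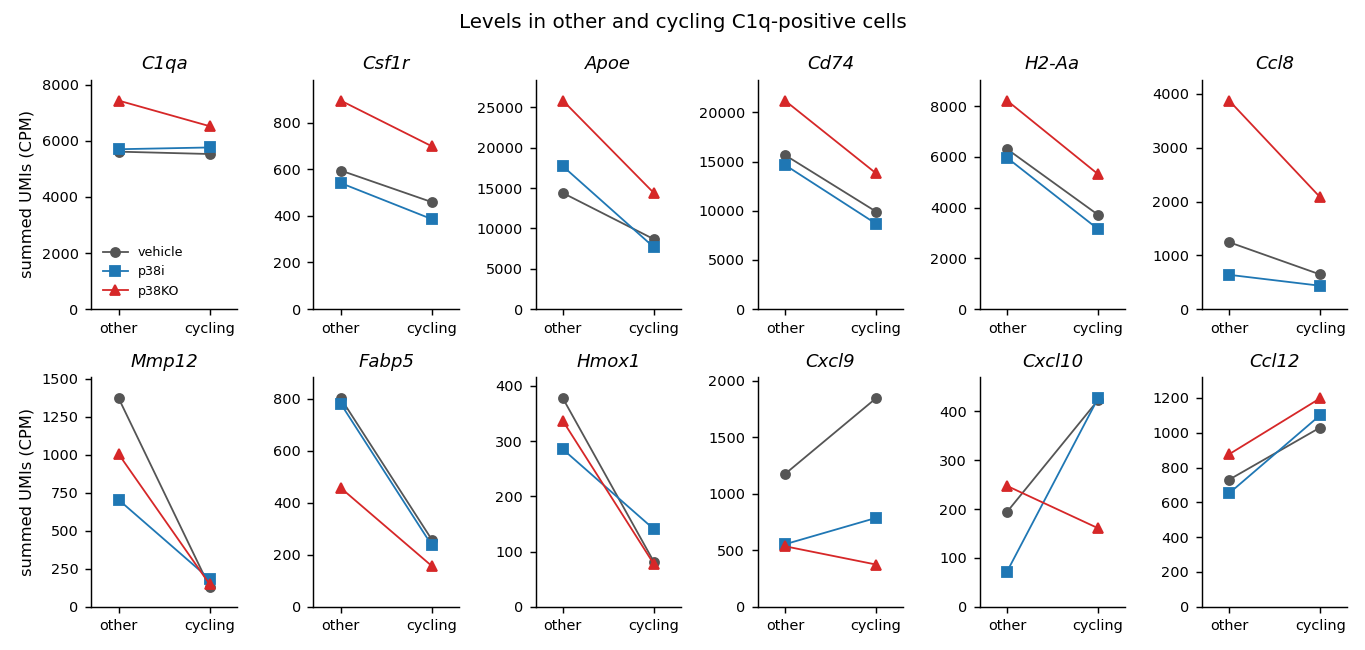
Each panel plots the CPM of 1 gene (linear y axis from 0) in other and in cycling C1q-positive cells of the 3 libraries, joined by lines within a library. C1qa stays near its level, Apoe, Cd74, H2-Aa, Mmp12, Fabp5 and Hmox1 are lower in the cycling cells of each library, and Cxcl9 and Cxcl10 are higher in vehicle and p38i but lower in p38KO.

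Signalling genes were more varied. Of 14 interferon-response genes, Zbp1 was the 1 lower in all 3 libraries (-0.62, -0.68 and -0.53), and none was higher in all 3. In p38KO 10 of the 14 were lower in cycling cells, among them Rsad2, which was 24.7, 22.4 and 9.13 CPM in cycling cells and 19.3, 37.6 and 170 CPM in the others. Cxcl9 and Cxcl10, ligands of the T cell receptor CXCR3, differed in direction between libraries. Cxcl9 was 1846, 787 and 374 CPM in cycling cells against 1175, 554 and 536, and Cxcl10 was 423, 427 and 161 CPM against 194, 72.2 and 248. Both were thus higher in cycling cells of vehicle and p38i and lower in those of p38KO. Among inflammatory genes the neutrophil chemokine gene Cxcl3 (8.24, 6.22 and 5.41 CPM against 92.2, 183 and 24.2) and the interleukin-1 receptor antagonist gene Il1rn were lower in all 3 libraries. Ccl12, a monocyte-attracting chemokine, was 1029.7, 1101 and 1198 CPM in cycling cells against 730, 652 and 876, with log2 ratios of 0.50, 0.75 and 0.45, of which the p38i value passed the limits.

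Several growth factor genes were lower in cycling cells. Of 12, 11 and 12 growth factor receptors and ligands with enough counts, 7, 4 and 5 were lower and none was higher, with medians of -0.75, -0.33 and -0.48, and Igf1 and Csf3r were lower in all 3 libraries. Csf3r is also among the 9 granulocyte markers described below, of which Il1r2 was lower in all 3 libraries too. The part of granulocyte transcripts in the Csf3r values was not tested. Of 8, 8 and 10 genes of the p38 pathway, 1 was lower in each library and none was higher, and none passed in all 3. Mapk14 itself was 29.3, 38.6 and 36.2 CPM in cycling macrophages and 30.4, 43.4 and 42.5 CPM in the others, so the transcript was present in the macrophages of all 3 libraries, the tumor cell knockout included. Of 11 immediate-early genes, Junb and Egr1 were lower in all 3, and of 8 p53 targets Btg2, which slows division, was lower in all 3 at 95.3, 23.7 and 55.1 CPM against 155, 57.1 and 99.9. No glycolysis gene of 12 passed in all 3 libraries, and Abca1, the cholesterol exporter, was the 1 of 11 cholesterol genes that did (lower).

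Outside the lists and by the same ranking, the acute phase gene Saa3, the activin gene Inhba, the myelin gene Pmp22, the small heat shock gene Hspb1, the collagenase gene Mmp8 and the dipeptidase gene Dpep2 were lower in all 3 libraries, beside Cxcl3, Nos2, Mmp12 and Fabp5. Saa3 was 2.75, 6.22 and 7.78 CPM against 15.8, 62.9 and 41.5. Hspb1 had no count in cycling cells of vehicle and p38i and 1.69 CPM in p38KO, against 21.6, 21.5 and 5.96 CPM, so that it was at least 2.97 and 2.52 log2 units lower in vehicle and p38i. Inhba rested on 1 cycling cell in each library.

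The p38i and p38KO libraries were each set against the same vehicle library, so their values share its errors. In cycling cells, 4.53% of 7387 genes were higher and 3.42% lower in p38i, and 7.19% of 9195 genes were higher and 3.18% lower in p38KO. In the other C1q-positive cells the shares were 2.46% higher and 3.86% lower in p38i, and 8.17% higher and 4.36% lower in p38KO. With median-ratio scaling the share of calls in the higher direction among p38KO cycling cells was 58.1% rather than 69.4%. With each gene's richest cell left out, this share was 79.7%. Only 37 and 33 cells stand behind the vehicle and p38i values, and the share of a gene's counts that came from its single richest cell is given below for a part of the genes. Among genes described above, this share was 41.8% and 42.1% for Ms4a7 in vehicle and p38i, 40.6% for Prc1 and 40.7% for Top2a in p38i, and 88.9% and 72.2% for Rsad2 in vehicle and p38i.

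In p38i cycling cells, several immediate-early genes were lower than in vehicle. Fos was 157 CPM in vehicle and 38.6 CPM in p38i (log2 ratio -2.02, 95% interval -2.62 to -1.46), and Junb was 352 CPM and 127 CPM (-1.47, -1.80 to -1.15). Both were lower in the other C1q-positive cells as well (-0.90 and -1.17). Over 11 immediate-early genes 6 were lower and 1 was higher (Ier2) in cycling cells, with a median of -0.79, whereas in the other C1q-positive cells 3 of 13 were lower and 2 higher, with a median of -0.02. Dusp1, the phosphatase that switches p38 off, was 67.8 CPM and 17.4 CPM (-1.96), and Zfp36, the mRNA decay factor controlled by the p38 pathway, was 133 CPM and 49.8 CPM (-1.42). These were the 2 lower genes of 8 in the p38 list, in which Mapkapk3 was higher (0.90). Btg2 was 95.3 CPM and 23.7 CPM (-2.01), and Rgs1, a regulator of chemokine receptor signals, 423 CPM and 61.0 CPM (-2.79, -3.25 to -2.37). Btg2 and Rgs1 were lower in the other C1q-positive cells too (-1.44 and -2.03). Of the p38i counts of Fos, 54.8% came from 1 cell, and without the richest cell of each library its ratio was -2.85.

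Several suppressive and hypoxia-linked genes were higher in p38i cycling cells. Of 10 suppressive and hypoxia-linked genes 5 were higher and none lower, among them Hmox1, Ndrg1, Bnip3 and Ero1l, while in the other C1q-positive cells 5 of 11 were lower and none higher. Hmox1 was 81.5 CPM in vehicle and 141 CPM in p38i cycling cells (0.79, 0.37 to 1.2) and 378 CPM and 285 CPM in the other cells, and without its richest cell in each library the cycling ratio was 0.44 (-0.07 to 0.96), short of the limit. Without the richest cell of each gene, 4 of 9 genes of this list were higher and none lower. Spp1 (osteopontin) was 628 CPM and 1652 CPM in cycling cells (1.40, 1.26 to 1.53) and 1241 CPM and 1263 CPM in the others. S100a6, a calcium-binding protein, was 106 CPM and 355 CPM (1.74, 1.42 to 2.06), against a ratio of 0.36 in the other cells. Ccl24, an eosinophil-attracting chemokine, and Txnip, which brakes glucose uptake, were higher in both classes. Ccl24 was 147 CPM and 418 CPM in cycling cells (1.51) and 281 CPM and 647 CPM in the others, and the ratios of Txnip were 1.34 and 1.09. Of the p38i counts of Spp1 and S100a6, 27.1% and 32.3% came from the richest cell, and without it the ratios were 1.36 and 1.64. The difference between both classes in these ratios was not tested. Ranked among the highest as well, Mmp9 (1.89) took 87.1% and AA467197 (1.69) 56.8% of its p38i counts from 1 cell, and without the richest cell of each library the ratio of Mmp9 was 0.09.

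Several replication genes were lower in p38i than in vehicle, in both classes of cells. Of 33 replication genes with enough counts in cycling cells, 8 were lower (Cdc45, Mcm10, Rrm1, Pold1, Pole, Lig1, Rpa2 and Ung) and none was higher, with a median of -0.37 beside 0.03 for all genes. In the other C1q-positive cells 6 of 23 were lower and none higher, with a median of -0.55 beside -0.01. In cycling cells without each gene's richest cell, 4 of 11 licensing and 7 of 20 DNA synthesis genes were lower and none higher. Cdc45 and Pole then had too few counts for a call, and Mcm3, Mcm4, Cdc6, Pcna and Rrm2 joined the lower ones. Lig1, the ligase of the lagging strand, was 124 CPM in vehicle and 74.7 CPM in p38i (-0.73, -1.19 to -0.28). Of 10 histone genes 5 were higher and none lower (median 0.87), with Hist1h1b at 37.6 CPM and 89.6 CPM, 43.1% of the latter from 1 cell. Without the richest cell of each gene, 2 of 9 histone genes were higher, with a median of 0.29. Of 46 mitotic genes 3 were higher and none lower (median 0.21). Of 9 tissue-resident genes 6 were lower and none higher, among them Folr2 (-1.60) and Ccl8 (-0.57, and -2.44 without its richest cell). In the other C1q-positive cells 5 of 11 were lower and 1 was higher, and Ccl8 gave -0.96. Cxcl9 was 1846 CPM and 787 CPM (-1.23), with -1.09 in the other cells.

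In p38KO cycling cells a part of the mitotic genes was higher than in vehicle. Of 49 mitotic genes 15 were higher and none lower, with a median of 0.39 beside 0.06 for all genes. Without the richest cell of each gene, which takes a larger share of the cells from vehicle, 10 of 21 genes of mitotic kinases and spindle, 6 of 16 of the centromere and 9 of 12 of mitotic exit were higher, against 7, 4 and 4 with all cells. Ube2c was 81.5 CPM in vehicle and 199 CPM in p38KO (1.28, 0.96 to 1.62), the spindle motor gene Kif11 22.9 CPM and 44.3 CPM (0.95), and Prc1 39.4 CPM and 76.4 CPM (0.96). Of 33 replication genes 1 was higher and 3 were lower (median -0.17), and of 11 histone genes 6 were higher and none lower. With each gene's richest cell left out, 7 of 10 histone genes were higher and none lower. Of 12 licensing genes none then passed either way, and of 21 DNA synthesis genes 1 was higher and 1 lower. Mki67, which is part of the rule, was 131 CPM and 230 CPM (0.81).

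The macrophage genes also differed in p38KO. Of 18 identity genes 5 were higher (Csf1r, Apoe, Trem2, Ctsd and Cx3cr1) and none lower. Apoe was 8664 CPM in vehicle and 14389 CPM in p38KO cycling cells (0.73), with 0.84 in the other cells, and Trem2 was 197 CPM and 358 CPM (0.86). Of 9 monocyte genes 6 were higher, among them Ly6c2, Ccr2, Ly6a, Ms4a4c and Fn1, and F13a1 was lower, with a median of 0.68, while in the other C1q-positive cells 1 of 11 was higher and none lower. The fibronectin gene Fn1 gave 0.84, Ms4a4c 0.68 and Ccr2 0.56, and Ly6c2 and Ly6a had 1 and 8 counts in vehicle cycling cells. Of 10 tissue-resident genes 4 were higher (Cbr2, Gas6, Ccl8 and Selenop) and 2 lower (Timd4 and F13a1, which is on both lists), beside 6 higher and 2 lower of 11 in the other cells. In cycling cells without each gene's richest cell, a step that tends to raise these ratios, 6 of 9 monocyte genes were higher and none lower. F13a1 was then no longer called lower. Of 10 tissue-resident genes 5 were then higher and 1 was lower. The growth factor Igf1 was 7.33 CPM and 35.8 CPM (2.29, 1.26 to 3.54). Ccl8 was 644 CPM and 2079 CPM (1.69), close to the ratio of 1.64 in the other cells. Tmem119, a gene best known from microglia, was 3.66 CPM and 64.9 CPM (4.15, 2.77 to 6.04), with a UMI in 5.41% of vehicle and 50.8% of p38KO cycling cells and a ratio of 1.48 in the others. Once the richest cell of each gene and the cells with mast cell transcripts (described below) were left out, a choice made after the values were seen, the ranking also brought up Irf7 (2.42), Tmem176a (1.93), Tmem176b (1.52), Cp (2.01), Fcrls (2.03) and Arsb (2.03), with the ratios over all cycling cells in parentheses. Each of these 6 was higher in the other C1q-positive cells of p38KO too, with ratios of 1.32, 1.68, 1.40, 2.09, 1.76 and 1.41.

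Interferon genes split in p38KO cycling cells. Ifit2, Ifit3, Isg15, Irf7, Ifi44, Bst2 and Zbp1 were higher than in vehicle, and Rsad2, Gbp2, Cxcl9, Cxcl10 and Iigp1 were lower, of 14 genes in all. The Rsad2 value rests largely on 1 vehicle cell. Without the richest cell of each gene, Rsad2 had too few counts for a call and 8 of 13 genes were higher and 4 lower, Ifit1 being added to the higher ones. Here too the step takes a larger share of the cells from vehicle. Irf7, the factor that amplifies type I interferon, was 33.9 CPM and 182 CPM, whereas Cxcl9 was 1846 CPM and 374 CPM (-2.30, -2.41 to -2.20) and Cxcl10 423 CPM and 161 CPM (-1.39, -1.58 to -1.21). In the other C1q-positive cells 10 of the 14 were higher and 1 was lower, and Cxcl10 there was 194 CPM and 248 CPM (0.35). The guanylate-binding protein gene Gbp2b (-1.36) and the serpin gene Serpina3g (-1.46) were lower too, with -0.68 and -0.43 in the other cells. Ifitm1, an antiviral membrane protein, was 1087 CPM in vehicle and 181 CPM in p38KO (-2.59, -2.74 to -2.44), and the p38i library, at 1835 CPM, lay on the other side of vehicle. In the other C1q-positive cells its ratio was -1.36 in p38KO and 0.75 in p38i. Mmp13, a collagenase, was 207 CPM and 69.3 CPM (-1.58), Cd93 137 CPM and 52.8 CPM (-1.38), and the osteoclast fusion gene Ocstamp 76.9 CPM and 13.2 CPM (-2.54). The other cells gave -1.55 for Mmp13 and -1.24 for Cd93, and Ocstamp there was 33.3 CPM and 19.9 CPM. Of the immediate-early genes, 4 were lower and 2 higher among 12, with Fos at 157 CPM and 55.5 CPM (-1.50) and Dusp1, the 1 lower gene of 8 in the p38 list, at 67.8 CPM and 23.3 CPM (-1.54). Fos and Dusp1 were lower in the other cells as well (-1.21 and -1.31).

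**Figure D5:**
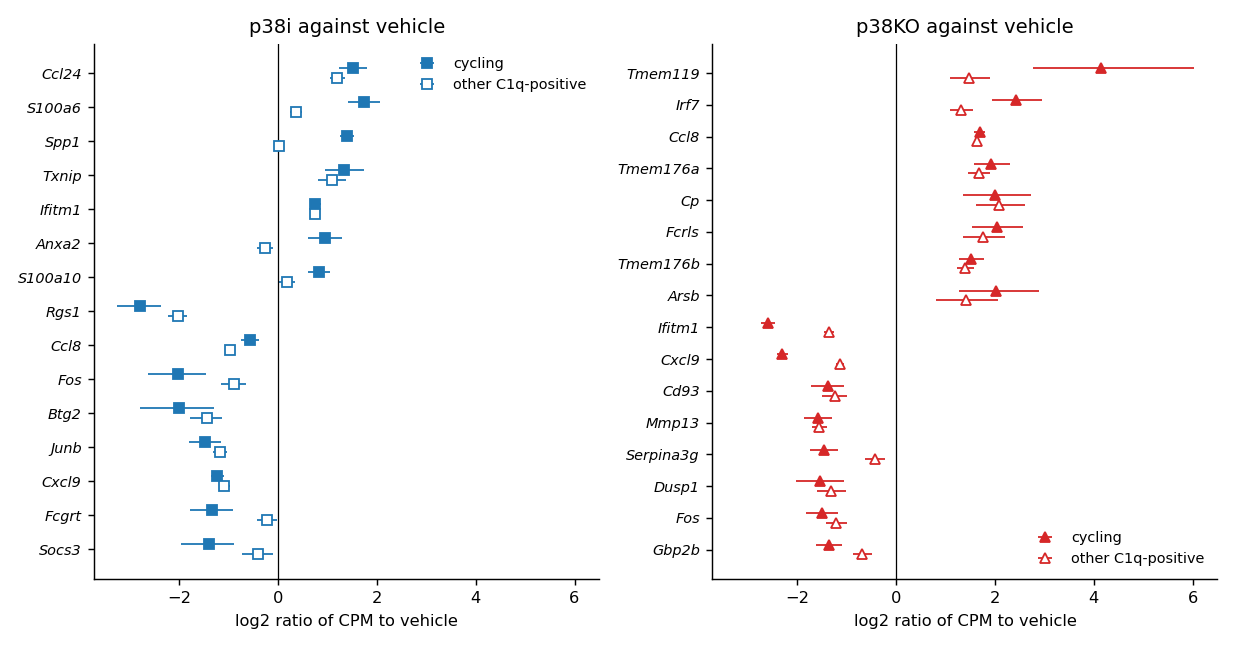
Symbols give the log2 ratio of CPM to vehicle (x axis) with exact 95% intervals in cycling (filled) and other (open) C1q-positive cells, for genes ranked highest and lowest after the richest cell of each gene and cells with mast cell transcripts were left out of the ranking. Spp1 in p38i has a cycling ratio of 1.40 beside 0.03 in the other cells, whereas Ccl8 in p38KO has 1.69 and 1.64.

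Transcripts of other cell types were present and unequal. The highest ratios in p38KO cycling cells belonged to the mast cell protease genes Mcpt1, Mcpt2, Tpsab1, Cma1, Mcpt4 and Cpa3, which had no count in the cycling cells of vehicle or p38i. Mcpt1 was 382 CPM, at least 7.12 log2 units above vehicle, and 93.7% of it came from 1 cell. Mcpt2 was 318 CPM (at least 6.85) with 84.5% from 1 cell. At least 2 UMIs of the 9 mast cell or basophil markers were found in 0, 0 and 9 cycling and in 0, 0 and 22 other cells, and the summed markers stood at 0.916, 1.24 and 253 CPM in cycling and 2.34, 0.488 and 335 CPM in other cells. Tpsab1 was the most abundant of them in p38KO, where none of the 9 was at 0, while 8 of 9 were at 0 in cycling cells of vehicle and of p38i. The monocyte gene Ly6c2 (0.916, 0 and 43.0 CPM) took 51.2% of its p38KO counts from 1 cell.

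For the other types, the 9 granulocyte markers summed to 280, 393 and 257 CPM in cycling and 555, 625 and 730 CPM in other cells, led by S100a9, with Cxcr2 (at 0 by the rule) and Ly6g at 0 in the cycling cells of each library. The 10 T cell markers summed to 35.7, 8.71 and 20.6 CPM against 12.3, 3.41 and 22.8, and the 8 B cell markers to 131, 73.5 and 178 CPM against 63.0, 48.8 and 141, led by Ighm, with Pax5 at 0 in the cycling cells of each library. The 10 dendritic cell markers summed to 109, 37.3 and 70.3 CPM against 40.9, 49.8 and 77.5, led by Batf3, which is no defining marker and had a UMI in 42.3%, 36.2% and 40.2% of C1q-positive cells. Of the defining dendritic genes, Xcr1 was 25.6 CPM in cycling and 0 in other cells of vehicle and Clec9a 14.7 against 2.92, and at least 2 UMIs of these genes were found in 4 of 37 cycling and 1 of 93 other cells there. Their part in the vehicle values was not tested beyond leaving out mixed cells. The 8 NK cell markers summed to 48.6, 52.3 and 55.5 CPM against 54.3, 39.997 and 132, led by Klrk1. The 10 tumor epithelial markers summed to 3.66, 13.7 and 5.41 CPM against 6.42, 14.1 and 11.7, and the 10 stromal markers to 28.4, 23.7 and 23.7 CPM against 53.1, 57.6 and 35.8. In all, 6 of 37, 2 of 33 and 27 of 128 cycling cells, and 12 of 93, 8 of 119 and 57 of 355 other cells, held at least 2 UMIs of defining markers of another type, and their part in the differences between conditions was not tested beyond leaving them out. Left out of all classes, they took the genes higher in cycling cells of all 3 libraries from 405 to 324, of which 306 were shared, and the lower genes from 135 to 91, of which 77 were shared.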

How the data were processed

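The authors aligned and counted the 10x Genomics 3' reads with Cell Ranger (6.0.0 in the file headers), and the submitters' notes name the mm10 build, R 4.2.1 and Seurat 5. The deposited values were raw UMI counts per gene and barcode, with no normalization, for 32285 genes and 16143 barcodes. The labels and the methods differ on the kit version. Kept cells had at least 1500 UMIs and 300 genes, and no more than 20% of their counts came from mitochondrial genes. No doublets were called or removed. Cells that held markers of another type were counted and left out as an alternative.

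Counts were summed per class and library and divided by the class total (CPM). Log2 ratios carry exact conditional binomial 95% intervals. A call needed 0.5 either way, an interval without 0 and 20 counts over both classes. A class at 0 was set to a floor of 3 counts. Shares carry Clopper-Pearson intervals. Thinning drew UMIs without replacement, and the median of 101 draws with seed 1 is given. The members and gene lists were chosen with earlier results of these data known. Genes named are those of the rule and marker lists, the 4 with most counts of each list, and the 10 highest and lowest outside the division lists that were called in all 3 libraries with at least 100 counts. Against vehicle, the 8 highest and lowest are named. Further list members were named after their values were seen. Rankings passed over ribosomal protein and mitochondrial genes and symbols of the Gm and Rik kind. Single values of some genes that these rules take in are not reported here. Of the listed genes 2 were absent from the files. Scripts were tested on simulated data. Python 3.11.15, numpy 2.4.6, scipy 1.17.1, pandas 2.3.3 and matplotlib 3.10.9 were used. Gene positions are from GENCODE M21 on GRCm38.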

Additional observations from a re-analysis of the deposited data

Results flagged for a closer look

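Of 7949 genes with enough counts in each library, 30 (0.377%) passed the limits in opposite directions between cycling and other C1q-positive cells of different libraries, 7 of them among 273 listed genes. Those that the text or its lists name are given here as log2 ratios of cycling to other cells, and the difference between libraries was not tested. The chemokine gene Cxcl10 was higher in cycling cells of vehicle (1.12) and p38i (2.56) and lower in p38KO (-0.62), and Cxcl9 went the same way (0.65, 0.51 and -0.52). Ccl4 was lower in vehicle (-0.81) and higher in p38i (0.77), and Ccl7, a monocyte attractant, likewise (-0.53 and 0.68). The AP-1 gene Fosb was higher in vehicle (0.91) and lower in p38i (-1.76) and p38KO (-0.89). The linker histone gene Hist1h1c was lower in vehicle (-1.18) and higher in p38KO (0.65), as was Ly6a (-2.30 and 0.90), for which 63.6% of the p38KO cycling counts came from 1 cell. Ocstamp was higher in vehicle (1.21) and lower in p38KO (-0.59).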

How the results depend on the processing

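No paired analysis was possible because each group has 1 library. The cycling share depended on depth and on the number of genes asked for. It was 6.15%, 3.95% and 6.83% (vehicle, p38i and p38KO) at 1500 UMIs, 15.1%, 11.4% and 16.4% at 5000 UMIs, 50.8%, 40.1% and 50.3% with at least 1 of the 4 genes, and 20%, 14.5% and 15.5% with at least 3. The 253 genes lower in p38i cycling cells became 168 with a minimum of 50 counts, under which fewer genes were read. Mmp9 in p38i against vehicle turned to -4.81 with at least 3 of 4 genes, which left out the cell that held most of its counts. Other settings were limits of C1q at 5 and 20 counts, no filter on cells, no minimum count, median-ratio scaling and the mixed cells left out. The added alternatives were cells of at least 10000 UMIs and mast-marker cells left out. None of these moved a count of calls beyond 1.5 times. Apart from the limit of 10000 UMIs, none moved a share beyond its interval. With that limit, 32 of 103, 29 of 122 and 110 of 326 C1q-positive cells were cycling at their own depth. The p38KO share then lay above its interval of 22.6 to 30.7%. With cells of at least 10000 UMIs, 379 genes were higher in all 3 libraries, 369 of them shared with the 405 reported. Against vehicle the called genes themselves changed more than their number. With mixed cells left out, 60.7% of the genes called higher and 62.7% of those called lower in p38KO stayed called, and 68.4% and 61.7% in p38i. With at least 3 of 4 genes these shares were 66.3% and 60.6% in p38KO and 65.7% and 55.7% in p38i. List counts without the richest cell of each gene, a choice made after seeing the data, stand beside a part of the results they move. Among single genes and list medians 453 values kept their call or stayed within the counting error of the list, 121 did not, and 1 (Mmp9, above) was counted as reversed. Some small list medians also changed sign. List medians of at least 0.5 kept their sign under each setting run. The suppressive list in p38KO against vehicle went from -0.02 to 0.42 with at least 3 of 4 genes. The vehicle and p38i values rest on 37 and 33 cycling cells, and those of p38KO on 128.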
